A study of Mus musculus with 4 samples.

Results

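The uroplakin genes Upk1a, Upk1b, Upk2, Upk3a and Upk3b and the urothelial transcription factor gene Trp63 were examined in cells sorted from cultured mouse embryonic kidneys. Members were chosen by name, as probe sets annotated to exactly 1 of these symbols, and all 6 were measured, each by 1 probe set, among 18820 genes on the array. Uroplakins are the membrane proteins of urothelium, the epithelium that lines the renal pelvis, ureter and bladder, where they pack into rigid plaques on the surface of umbrella cells. The tetraspanins Upk1a and Upk1b each carry a partner through the secretory pathway, Upk1a with Upk2 and Upk1b with Upk3a or Upk3b. Trp63 encodes p63, a relative of p53 that maintains the basal cells of stratified epithelia, including urothelium. Upk1b and Upk3b are also known from mesothelium, the covering layer of internal organs.

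The mice carried the Lgr5-EGFP-Ires-CreERT2 knock-in (stock B6.129P2-Lgr5tm1(cre/ERT2)Cle/J), which places enhanced green fluorescent protein (GFP) under the control of Lgr5, so GFP follows the reporter locus and not a urothelial gene. Kidneys of about day 14 of gestation were cultured for about 10 days, digested, and sorted into a GFP-high and a GFP-negative fraction. Both fractions came from reporter-positive kidneys, so the allele was shared by all arrays. There were 4 Affymetrix arrays, 2 per fraction, called here A-high, B-high, B-negative and D-negative for the fraction and the kidney letter in the title. Whether a letter stands for 1 animal, a pool or a litter is not stated, so the spread behind each p-value may be technical. Values below are given in that order of arrays, GFP-high first. Array medians lay between 5.07 and 5.24 on the log2 scale, and the sorted gene Lgr5 was 16.4-fold higher in GFP-high cells (log2 values 10.43 and 10.34 against 6.39 and 6.31). The nephric lineage genes Pax2 and Pax8 were at 9.76 or above on every array, with Pax8 at 11.49 and 11.60 in GFP-high and 11.44 and 11.61 in GFP-negative cells. In bulk RNA of this kind, fewer cells expressing a gene and less RNA per cell cannot be told apart.

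The RefSeq promoter table (GRCm38.p6) held 3 of the 6 genes, Upk1a, Upk3a and Upk3b. The 250 bases before each gene's start are shown because Upk1a differed between the fractions whereas the other genes of the set with a promoter entry did not pass the test. Capitals mark every match, on either strand, to the motifs described after the sequences. The windows are chr7:30612735-30612984 on the minus strand for Upk1a, chr15:85016891-85017140 on the plus strand for Upk3a and chr5:136038246-136038495 on the plus strand for Upk3b, each written 5′ to 3′.
Upk1a: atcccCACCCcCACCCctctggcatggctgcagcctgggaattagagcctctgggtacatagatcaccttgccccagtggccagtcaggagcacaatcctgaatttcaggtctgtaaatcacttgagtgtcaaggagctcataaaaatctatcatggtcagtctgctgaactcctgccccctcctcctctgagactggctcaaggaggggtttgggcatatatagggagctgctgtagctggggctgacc
Upk3a: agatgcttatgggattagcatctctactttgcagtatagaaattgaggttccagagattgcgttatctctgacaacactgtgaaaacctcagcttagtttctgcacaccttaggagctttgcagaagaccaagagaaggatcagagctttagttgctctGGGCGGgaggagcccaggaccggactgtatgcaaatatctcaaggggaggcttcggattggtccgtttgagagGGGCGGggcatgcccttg
Upk3b: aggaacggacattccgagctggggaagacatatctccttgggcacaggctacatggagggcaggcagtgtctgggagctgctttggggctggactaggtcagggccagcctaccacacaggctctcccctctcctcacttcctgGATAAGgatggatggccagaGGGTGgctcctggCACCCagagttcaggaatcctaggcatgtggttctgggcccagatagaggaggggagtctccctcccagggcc
CACCC, the core of Krüppel-like factor sites, occurred at 2 places in Upk1a (starting 245 and 239 bases before the gene's start), at 2 in Upk3b and at 0 in Upk3a, and 52.0% of 32851 promoter windows held it. GGGCGG, the core of Sp1 sites, occurred at 2 places in Upk3a alone of the 3 and in 32.7% of windows. GATAAG, the core bound by GATA factors, occurred once in Upk3b and in 6.55% of windows. The Grainyhead motif AACCNGGTT (0.24% of windows), the AP-2 motif GCCNNNGGC (13.7%), the Iroquois motif ACANNTGT (6.31%), the forkhead motif TGTTTAC (3.17%) and TATAAA (12.4%) had no match in these 3 windows. Matches of different motifs did not overlap. These matches describe letters, and binding was not measured. Variants of the motifs were not searched, so TATATA near the end of the Upk1a window is neither counted nor marked. The GC content was 54.4% in Upk1a, 49.6% in Upk3a and 60.8% in Upk3b, against a median of 52.4%.

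Upk1a was the member that rose in GFP-high cells. Its log2 values were 9.51 on A-high and 9.69 on B-high, against 6.75 on B-negative and 6.79 on D-negative. Both GFP-high values lay far above both GFP-negative values, and the replicates of each fraction lay close together, with means of 9.60 ± 0.132 and 6.77 ± 0.0299 (SD, n = 2 each). The log2 difference was 2.83 (SE 0.128, 95% interval 2.53 to 3.13), or 7.10-fold with an interval of 5.76 to 8.76 (limma adjusted p = 1.877e-05). Only 0.186% of all genes had a larger rise, which placed Upk1a at rank 36 of 18820. Within kidney B, the letter that both fractions share, the difference was 2.94. Upk1a signal was not confined to the GFP-high fraction. Its GFP-negative values stood well above 4.24, the 95th percentile of 990 olfactory receptor genes (median 3.32), which serve here as a reference for background. The sorted gene Lgr5 also stood above it there, at 6.39 and 6.31, and which cells gave the Upk1a signal was not tested.

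Upk1b, the other tetraspanin uroplakin, was lower in GFP-high cells. Its log2 values were 4.21 on A-high and 3.88 on B-high against 4.91 on B-negative and 4.83 on D-negative. The fractions did not overlap, and both GFP-high values fell below the background reference whereas both GFP-negative values exceeded it. The measured log2 difference was -0.83 (SE 0.149, 95% interval -1.18 to -0.48; limma adjusted p = 0.007491). Since its GFP-high level is at background, the size is limited by that floor. With values below the reference set to it, Upk1b was 1.55-fold lower between the means, a point value and not a lower bound. Its call was lost without B-high (adjusted p = 0.082), B-negative (0.121) or D-negative (0.0933), fits that keep 1 residual degree of freedom. It held without A-high (0.0465).

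**Figure D1:**
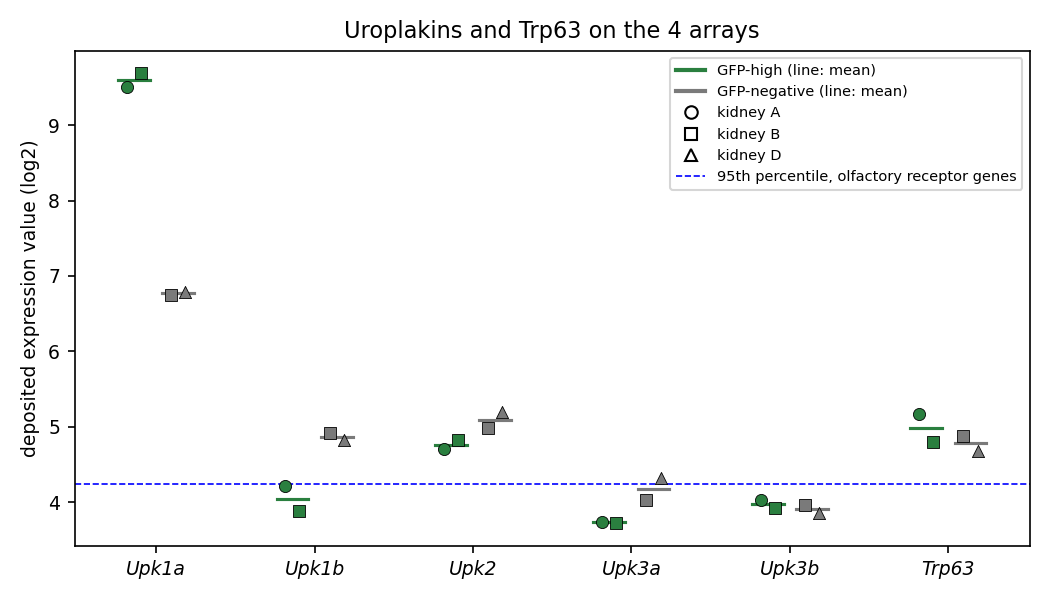
Deposited log2 expression values (vertical axis) of the 5 uroplakin genes and Trp63 on each of the 4 arrays, with symbols for the kidney letter, short lines for the mean of each fraction and a dashed line at 4.24, the 95th percentile of olfactory receptor genes. Upk1a lies far above the line in both fractions and higher in GFP-high cells, whereas the other 5 genes lie between 3.72 and 5.19.

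Upk2, the partner of Upk1a in the plaque, did not rise with it. Its log2 values were 4.70 and 4.82 in GFP-high cells and 4.98 and 5.19 in GFP-negative cells. All 4 arrays exceeded the background reference of 4.24, but only by a small margin, and the GFP-high arrays were the lower ones. The difference of -0.32 (95% interval -0.64 to -0.0036) did not pass over all genes (limma adjusted p = 0.1638), and it was -0.15 within kidney B. Upk3a, the partner of Upk1b that has a cytoplasmic tail, stood at 3.74 and 3.72 in GFP-high and 4.03 and 4.32 in GFP-negative cells. Only D-negative exceeded the background reference, and the difference of -0.44 (95% interval -0.77 to -0.11) did not pass (limma adjusted p = 0.07603). Upk3b, the alternative partner of Upk1b, was below the reference on every array, at 4.03 and 3.92 against 3.96 and 3.86. Its fractions overlapped, with a difference of 0.06 (95% interval -0.23 to 0.35, limma adjusted p = 0.8016). Because Upk3a and Upk3b lie at or near background, their intervals describe the measured values and cannot show how far a decrease went.

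Trp63 gave log2 values of 5.17 on A-high, 4.80 on B-high, 4.88 on B-negative and 4.68 on D-negative. The fractions overlapped, and the highest value was that of A-high. The difference was 0.21 (95% interval -0.18 to 0.59) and did not pass (limma adjusted p = 0.4685). Within kidney B it was -0.08. All 4 values lay above the background reference, but by less than 1 log2 unit. The probe set is annotated to several Trp63 transcripts, so the long and the amino-terminally truncated forms of p63 are not resolved. Trp73, the related family member, was at 4.09 and 4.26 against 4.25 and 4.22, near the reference, and did not pass.

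**Figure D2:**
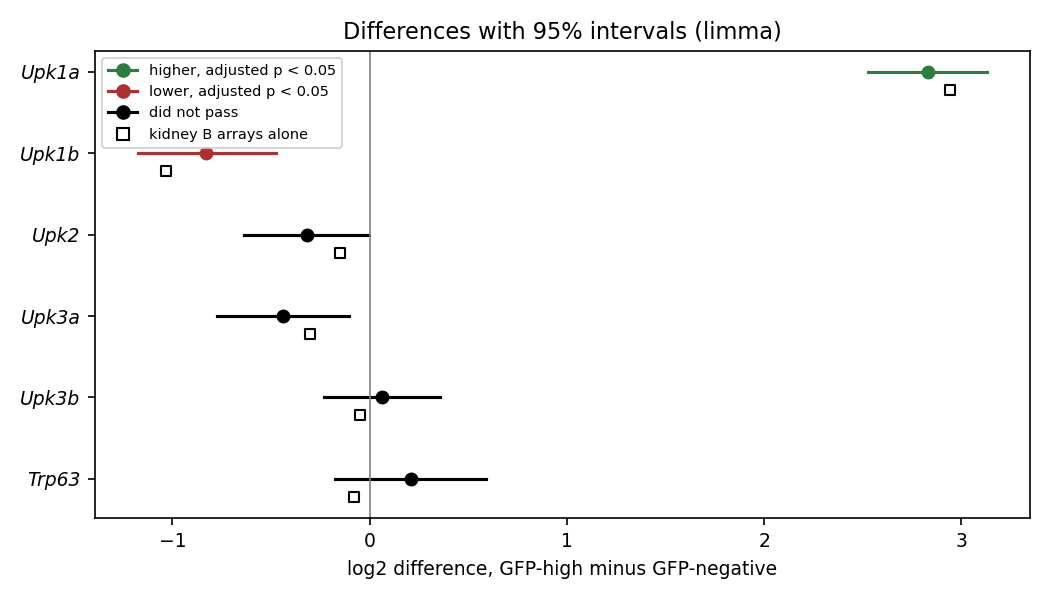
Log2 difference, GFP-high minus GFP-negative, for each member (filled points, n = 2 arrays a fraction) with its 95% interval from limma, and the same difference between the kidney B arrays alone (open squares). Upk1a at 2.83 and Upk1b at -0.83 passed the test, and the other 4 did not.

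Across the set, 1 of 6 members was higher and 1 lower, where 8.08% and 11.2% of all genes were called in those directions. The share of members called, 33.3%, stands beside 19.2% of all genes, and with so few genes it rests on Upk1a and Upk1b. The fractions did not overlap in 4 of 6 members, against 57.3% of all genes. The members' median difference was -0.13, against 0.051 for all genes.

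The rise of Upk1a was then set against the change of each other uroplakin, in 4 comparisons within arrays. Upk2 is the comparison in which both genes exceeded the background reference on every array, although Upk2 did so by less than 1 log2 unit. Relative to Upk2, Upk1a changed by 3.15 more on the log2 scale, an 8.86-fold ratio of folds, with 3.03 to 3.26 over the 4 pairings of a GFP-high with a GFP-negative array. The measured values were 3.65 (3.33 to 3.98) relative to Upk1b, 3.27 (3.04 to 3.50) relative to Upk3a and 2.77 (2.54 to 2.99) relative to Upk3b. These genes were above the reference on 2, 1 and 0 arrays, so the values do not measure how far they changed. With values below the reference set to it, the differences were 3.46, 2.87 and 2.83. The exact two-sided permutation p was 0.333 for each (0.333 after Benjamini-Hochberg adjustment), the smallest that 2 arrays against 2 can give, so the threshold could not be reached. Within kidney B the measured values were 3.10 for Upk2, 3.98 for Upk1b, 3.25 for Upk3a and 2.99 for Upk3b.

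Among other genes known from urothelium, those higher in GFP-high cells were Mal, Elf3, Gata3 and Krt18, and Pparg was lower. Of 19 measured genes, 4 were higher, 1 lower and 14 did not pass (26.3% called, near the 19.2% of all genes, with a median difference of -0.05). The gene with the largest difference was Mal, which encodes a raft-associated proteolipid that takes part in delivering uroplakin vesicles to the apical membrane of umbrella cells. Mal had log2 values of 9.09 and 9.11 against 6.15 and 6.47, a 6.91-fold rise (limma adjusted p = 2.837e-05) that passed without each array in turn. Which cells gave the Mal signal was not tested. Elf3, an epithelial Ets factor, stood at 8.32 and 8.75 against 7.03 and 7.17. Gata3, a transcription factor of the ureteric bud and of urothelium, stood at 8.78 and 7.80 against 7.07 and 6.94, with A-high well above B-high. Krt18, a keratin of simple epithelia, was the remaining higher gene at 9.44 and 9.28 against 8.59 and 8.52. Pparg, a nuclear receptor that promotes urothelial differentiation, was lower at 4.69 and 4.83 against 5.61 and 6.27.

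Further genes of this list, named after their values were seen, did not pass. Krt20, the keratin of umbrella cells, was at 3.68 and 3.74 against 4.35 and 3.94, and Krt5, the basal keratin, at 5.19 and 4.97 against 4.94 and 4.82 (limma adjusted p = 0.1158 and 0.3945). Snx31, a sorting nexin of uroplakin turnover, stood at 4.04 and 4.30 against 4.76 and 4.54, and Rab27b, a small GTPase of uroplakin vesicle exocytosis, at 4.49 and 4.52 against 4.80 and 4.72. Upk3bl, a gene related to Upk3b, was below the background reference on all arrays (3.72 and 3.60 against 3.50 and 3.41). Other genes that did not pass stood well above it in both fractions. Krt7 was at 7.24 and 6.84 against 6.83 and 6.85, and Klf5 at 7.39 and 7.57 against 7.54 and 7.65. Grhl3 was at 5.48 and 5.62 against 5.33 and 5.44. Of the 19 measured genes, 5 had a mean at or below the reference. The count of called genes on this list was 2 without A-high, B-negative or D-negative and 3 without B-high. Of the 5 called genes, Mal passed in all 4 of these fits, Elf3 in 3, Gata3 in 1, Pparg in 1 and Krt18 in 0.

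Upk1a and Upk1b belong to the tetraspanin family, in which some other members were called in each direction. Apart from these uroplakins, 7 of 28 measured tetraspanin genes were higher, 5 lower and 16 not passing, which is 42.9% called with a median difference of -0.03, against 19.2% called among all genes. Tspan8, a tetraspanin of secretory epithelia, had the rise nearest to that of Upk1a, at 8.04 and 7.87 against 5.10 and 5.49, or 6.31-fold higher. Tspan2 stood at 4.26 and 5.02 against 8.32 and 6.50, a 6.81-fold decrease with a wide gap between B-negative and D-negative. Tspan4 was lower by a log2 difference of -1.72 (SE 0.164), and Tspan11 was lower at 5.66 and 5.92 against 7.06 and 7.37. The other higher genes were Tspan12, Tspan33, Cd9, Tspan1, Tspan13 and Tspan14, with log2 differences from 1.26 to 0.48, and the other lower ones were Tspan15 and Tspan17. Widely expressed members such as Cd63, Cd81 and Cd151 did not pass. The called genes numbered 4 without A-high, 3 without B-high, 4 without B-negative and 6 without D-negative. Tspan4 and Tspan8 passed in all 4 of these fits, Tspan11 in 3, and Tspan2 only in that without D-negative.

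Genes of basal epithelial cells linked to p63 were called in both directions. Of 10 measured, 2 were higher, 1 lower and 7 did not pass (30.0% called beside 19.2% of all genes, a margin of few genes in a list this small, median 0.02). The higher genes were Itgb4 (7.48 and 7.19 against 5.66 and 5.70, 3.14-fold) and Itga6 (11.58 and 11.34 against 10.03 and 10.35, 2.41-fold), the chains of the integrin of hemidesmosomes, which other epithelia also carry. Perp, a desmosomal p63 target, was lower at 7.20 and 7.53 against 7.93 and 8.11, but lost its call whichever array was left out (limma adjusted p 0.0761 to 0.219). The basal keratin gene Krt14 was at 4.86 and 4.86 against 4.97 and 4.85. Itgb4 passed without each array in turn, and Itga6 in 2 of those 4 fits. The list's count was 1 without either GFP-high array and 2 without either GFP-negative array.

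**Figure D3:**
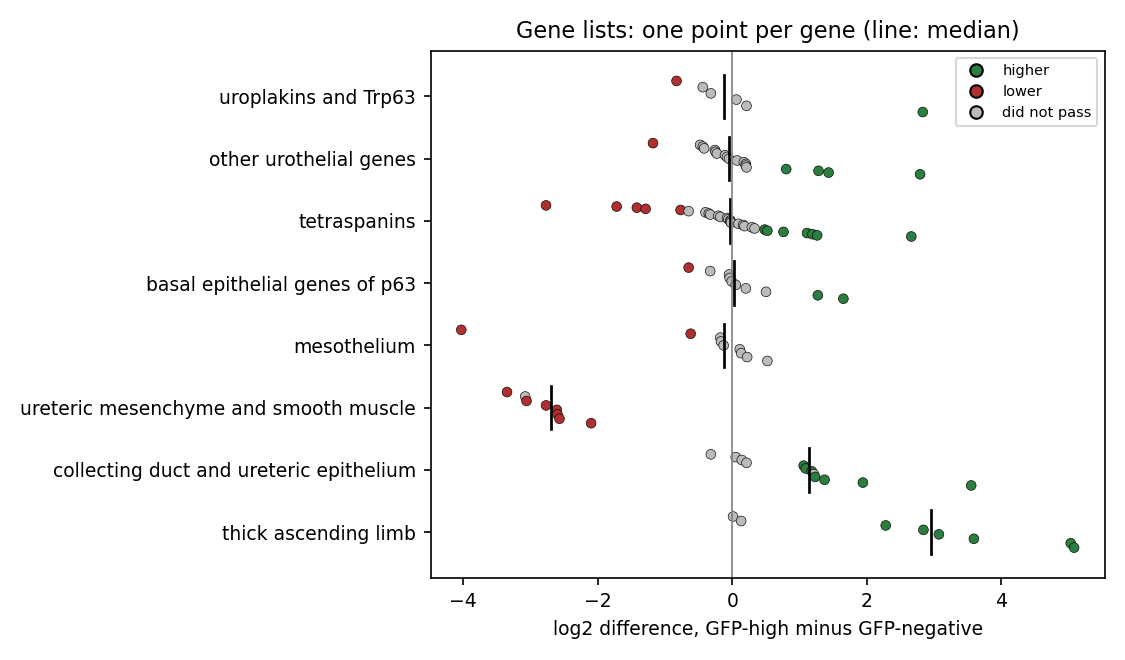
Log2 difference, GFP-high minus GFP-negative, of each measured gene (points) by gene list, with a vertical line at the list's median and colour for genes called higher, called lower or not passing. Upk1a and Mal stand apart to the right of their lists, and the uroplakin, other urothelial, tetraspanin, basal and mesothelial lists have medians within 0.13 of 0.

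Because Upk1b and Upk3b are also mesothelial genes, other markers of mesothelium were read beside them. Of 9 measured, 0 were higher, 2 lower and 7 did not pass, and their summed linear level ran from 1973 to 2217 in GFP-high and from 3694 to 3827 in GFP-negative cells. The calls, 22.2% of the list, are near the 19.2% of all genes. The gap between the sums rests on Wt1: without it the other 8 genes summed to 1905 to 2064 against 1977 to 2190. The lower genes were Wt1, also a gene of nephron progenitors and podocytes, at 6.09 and 7.26 against 10.85 and 10.55, and Gpm6a at 7.35 and 7.31 against 7.77 and 8.14. Gpm6a lost its call whichever array was left out (limma adjusted p 0.0536 to 0.21), which left a count of 1 in each of those fits, and Wt1 passed in all 4. Msln, which encodes mesothelin, Bnc1 and Calb2 were below the background reference on every array, with Msln at 3.99 and 3.81 against 3.74 and 3.80. Lrrn4 exceeded it on B-negative alone, at 4.30. The remaining genes, Pdpn, Krt19 and Aldh1a2, exceeded the reference on every array and did not pass. Pdpn was at 8.44 and 8.94 against 8.20 and 8.14, a difference of 0.52 (95% interval 0.10 to 0.94, limma adjusted p = 0.09402). Krt19 was at 7.30 and 7.03 against 6.83 and 7.06, and Aldh1a2 at 10.21 and 10.27 against 10.34 and 10.49.

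Markers of several other cell types moved with the sort, and their part in the values of Upk1a and Upk1b was not tested. Among all genes, 8.08% were called higher and 11.2% lower, and the counts below stand beside those shares. Of 8 genes of the thick ascending limb, 6 were higher and 0 lower, with a summed linear level of 3560 to 4346 in GFP-high against 287.8 to 310.3 in GFP-negative cells. The sodium-potassium-chloride cotransporter gene Slc12a1 was at 10.37 and 10.40 against 5.30 and 5.31. Of 12 genes of collecting duct and ureteric epithelium, which arises from the ureteric bud as urothelium of the ureter does, 7 were higher and 0 lower, with sums of 3742 to 3948 against 1499 to 1565. Among the Wnt ligand genes of this list, Wnt7b was higher at 8.35 and 8.59 against 4.90 and 4.95. Wnt11 was also higher, at 6.63 and 5.94 against 5.19 and 5.27, and Wnt9b did not pass. The receptor gene Ret did not pass either. Of 8 genes of ureteric mesenchyme and smooth muscle, the layer around urothelium, 7 were lower and 0 higher, with sums of 494.0 to 1340 against 4010 to 8095. Tshz3, a regulator of ureteral smooth muscle, was at 5.51 and 5.45 against 9.01 and 8.65, and Tbx18, which marks ureteric mesenchyme, at 4.11 and 3.84 against 6.96 and 6.13. With A-high, B-high, B-negative or D-negative left out in turn, the called genes numbered 5, 5, 6 and 6 for the thick ascending limb, 3, 5, 3 and 4 for the duct list and 1, 3, 3 and 6 for the mesenchyme list. Endothelial genes were lower in 4 of 4, with sums of 67.0 to 71.5 against 234.7 to 361.7. Of 4 leukocyte genes Cd68 alone was lower, with sums of 230.7 to 264.7 against 321.6 to 342.7. With so few genes, that single leukocyte call cannot be set apart from the 19.2% called among all genes. With the arrays left out in the same order, the called genes numbered 1, 2, 4 and 4 for endothelium and 0 each time for leukocytes, where limma adjusted p of Cd68 ran from 0.0811 to 0.241.

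The genes whose values followed Upk1a most closely were found by the root mean square distance between profiles over the 4 arrays, each centred on the gene's mean. The nearest were Emb (0.075), which encodes the cell adhesion protein embigin, Mapk4 (0.078), Pygl (0.10), the liver-type glycogen phosphorylase, Sall3 (0.11), Sostdc1 (0.11), a secreted antagonist of BMP and Wnt signals, Mal (0.12), Hpgds (0.12), a prostaglandin D synthase, and Defb1 (0.13), an antimicrobial defensin of distal tubule and collecting duct epithelium. Their log2 differences ran from 2.61 for Sostdc1 to 2.97 for Defb1. Nearest to Upk1b were Adamts17 (0.026), Lrrn4cl (0.031) and Piezo1 (0.032), with differences of -0.79, -0.86 and -0.86. Over 4 arrays such likeness mostly restates the size of the difference between fractions.

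None of the 6 measured genes nearest to Upk1a on chromosome 7 was called, where 19.2% of all genes were. So few genes cannot be set closely against that share. In the RefSeq order, the measured neighbours were Igflr1, Kmt2b and Zbtb32 on the side of lower coordinates and Cox6b1, Etv2 and Rbm42 on the other, and none of these 6 overlaps Upk1a or passed the test. Their log2 differences ran from -0.26 for Igflr1 to 0.30 for Cox6b1, a subunit gene of cytochrome c oxidase, with limma adjusted p from 0.1418 to 0.8154. The 95% interval of Cox6b1 was 0.02 to 0.58, so a small rise of this gene is not excluded.

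**Figure D4:**
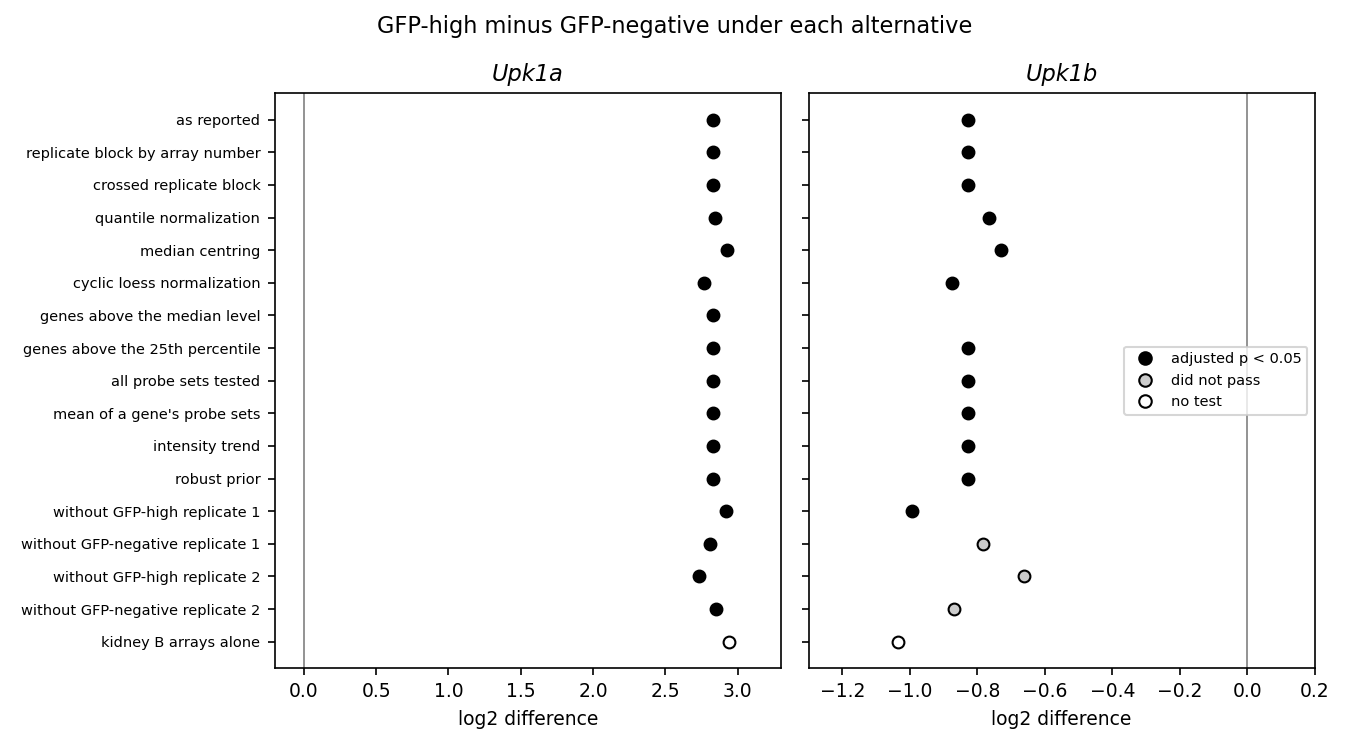
Log2 difference, GFP-high minus GFP-negative, of Upk1a (left) and Upk1b (right) as reported and under each alternative, filled black where adjusted p was below 0.05, grey where it was not and white where there is no test. Upk1a lies between 2.73 and 2.94 throughout, and Upk1b between -1.03 and -0.66, with no value where genes below the median level were left out.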

How the data were processed

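Total RNA of the sorted cells was labelled with biotin and hybridised to Affymetrix arrays, per the labels' protocols. The authors deposited log2 expression values, used here as they stand. Background correction, summary and normalization: not given in the sources used here. Scaling and centring between arrays therefore stay unknown, and direction needs no assumption since each value is a level of 1 array. No column was unused (0). Arrays have no read depth, and their number limits the precision.

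Of 35556 probe sets, 21218 named a single gene by the platform annotation. The probe set with the highest mean stood for a gene, giving 18820 genes. The test was limma 3.58.1 (lmFit, then eBayes; R 4.3.3) with fraction as its sole covariate. It was two-sided, and p-values were adjusted by Benjamini-Hochberg across all genes, with a threshold of 0.05. There were 2 residual degrees of freedom and a prior of 5.11. The fit was tested on simulated data. Exact permutation tests used scipy 1.17.1. Summed levels are sums of 2 to the power of the log2 value. Promoter windows came from the RefSeq table (GRCm38.p6), and motifs were chosen after the data were seen.

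The array numbers were checked for pairing. Deviations from the group means of same-numbered arrays correlated at -0.198 over genes, so the numbers were not taken to pair arrays. Crossed numbers, which join the kidney B arrays, gave 0.198. With 2 arrays a fraction this is by construction the same value with its sign turned. Kidney letters as a fixed block would leave no residual degrees of freedom, so kidney B alone is given as a value.

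Members and gene lists were chosen with earlier results of these data known. Genes named were all members, up to 4 called genes per list with the largest differences, each list's defining genes, Trp73 (Trp53 had no single-gene probe set here), the 3 measured neighbours on each side of Upk1a, the 8 nearest profiles to Upk1a and the 3 nearest to Upk1b. Other list genes were named after their values were seen.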

Additional observations from a re-analysis of the deposited data

How the results depend on the processing

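Upk1a passed under every alternative that gave a test, with log2 differences of 2.77 to 2.94 and 2.73 to 2.92 with 1 array left out (limma adjusted p at most 0.0207). Upk1b passed under all alternatives that gave a test except 3 of the 4 that left out an array. Its difference ran from -0.99 to -0.66 over those 4, with the call kept at -0.99 (without A-high). The replicate block changed no member's call: Upk1b kept a difference of -0.83 (limma adjusted p = 0.01354). It gave 1140 higher and 1819 lower genes, and 1 called mesothelial gene in place of 2, as did testing all probe sets. Crossing the numbers, which joins the kidney B arrays and was added after the data were seen, gave 1763 and 2339. Median centring gave 2122 higher and 1889 lower genes and moved the median of all genes from 0.051 to 0.147. Leaving out genes below the median level removed 5 members, so 1 member was called and 1192 genes were lower. With kidney B alone the differences of Upk2, Upk3b and Trp63 were -0.15, -0.047 and -0.080. With 1 array left out, 387 to 603 genes were higher and 729 to 1148 lower, and calls numbered 1 to 2 members, 2 to 3 other urothelial genes, 3 to 6 tetraspanins, 1 mesothelial gene and 1 to 2 basal genes. Setting values below the background reference to it, added after the data were seen, left Upk1a 2.83 to 3.46 above the other uroplakins in log2 difference. Of 224 values recomputed under alternatives, 189 were kept by the rule for their kind, and 0 reversed a called direction. A tested difference had to keep its call and a count to stay within 1.5 times. A kidney B difference had to lie within the larger SD of the 2 fractions. A comparison of Upk1a with another uroplakin had only to keep its direction, a loose rule. A random block of kidney letters was not fitted. Upk1b, Upk3a and Upk3b lie near background and Upk2 little above it, which limits how large a decrease could be seen.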
